A study of Mus musculus with 2 samples.

Results

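The 420 cells described here are the Id2-high T cells of a control library, made from mice in which Id2 was left intact. They were chosen by their own Id2 count: among control barcodes with at least 200 genes, at most 10% mitochondrial UMIs, 4000 to 8000 UMIs in all, at least 1 UMI of the CD3 genes Cd3d, Cd3e and Cd3g, and no UMI of Trdc or Cd79a, they carried 4 or more Id2 UMIs. A UMI is a molecular barcode that marks 1 captured RNA molecule. The gates kept 2379 of the 4937 control barcodes (48.2%), and the members are 420 of those 2379 cells. The whole series holds 7396 barcodes. The comparison cells are the 853 control cells inside the same gates with no Id2 UMI, and a further 1106 cells had 1 to 3.

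The series has 2 single-cell 3' RNA libraries of sorted CD4+ YFP+ cells, 1 per genotype, taken at the peak of experimental autoimmune encephalomyelitis. That disease is a mouse model of multiple sclerosis, induced here with MOG, a myelin protein, in complete Freund's adjuvant (MOG/CFA). The control mice were Il17Cre/R26YFP and the others Il17Cre/Id2f/f/R26YFP; both genotypes carry the Cre and the YFP reporter. Cre made under the control of the Il17 locus switches YFP on permanently, so YFP marks cells with a history of Il17 expression, whether or not they make IL-17 when sorted. The labels name the tissue as draining lymph node, as spleen and lymph node, or as spleen, and the sources used here do not give the number or age of the mice. With 1 library per genotype no difference could be tested, and cells of 1 library are not replicates. The intervals below are 95% intervals that cover counting error only.

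Id2 is a helix-loop-helix protein without a DNA-binding region. It pairs with E proteins such as those made by Tcf3, Tcf12 and Tcf4 and keeps them off their DNA sites, called E-boxes. In T cells Id2 is known for its part in effector and cytotoxic differentiation, while its relative Id3 is known from naive, follicular helper and memory precursor cells. Th17 cells, named for IL-17, are known to include cells that later make IFN-gamma.

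The Id2 gene lies on the minus strand at chr12:25093799-25097140 in GRCm38, the build called mm10. Because Id2 acts on E-box binding, the promoters of Id2, of 1 gene higher in the members (Nkg7) and of 2 genes lower in them (Izumo1r and Cd27) are shown, from 250 bases before to 50 bases after the start of the gene, 5' to 3' on the gene's own strand, from RefSeq (GRCm38.p6), whose start for Id2 lies inside the span given above from GENCODE. Capitals mark each E-box, searched as CANNTG, which reads the same on both strands as a pattern. The Id2 window is chr12:25096043-25096342 (minus), the Nkg7 window chr7:43436888-43437187 (plus), the Izumo1r window chr9:14903718-14904017 (minus) and the Cd27 window chr6:125236978-125237277 (minus).
Id2: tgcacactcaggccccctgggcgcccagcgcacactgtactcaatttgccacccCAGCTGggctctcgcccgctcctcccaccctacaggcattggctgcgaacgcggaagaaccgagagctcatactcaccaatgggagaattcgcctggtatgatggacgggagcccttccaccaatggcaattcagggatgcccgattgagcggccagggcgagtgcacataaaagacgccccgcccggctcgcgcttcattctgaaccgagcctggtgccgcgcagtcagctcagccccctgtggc
Nkg7: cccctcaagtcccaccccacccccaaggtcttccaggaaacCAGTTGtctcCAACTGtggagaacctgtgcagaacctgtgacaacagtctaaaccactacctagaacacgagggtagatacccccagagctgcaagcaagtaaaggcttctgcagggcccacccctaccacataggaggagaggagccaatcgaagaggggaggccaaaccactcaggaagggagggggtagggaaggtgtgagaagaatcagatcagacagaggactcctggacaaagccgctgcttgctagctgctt
Izumo1r: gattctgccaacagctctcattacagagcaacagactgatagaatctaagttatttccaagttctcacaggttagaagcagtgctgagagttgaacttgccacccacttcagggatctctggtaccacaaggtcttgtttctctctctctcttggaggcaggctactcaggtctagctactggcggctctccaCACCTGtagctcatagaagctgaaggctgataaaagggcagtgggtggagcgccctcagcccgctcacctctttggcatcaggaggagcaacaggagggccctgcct
Cd27: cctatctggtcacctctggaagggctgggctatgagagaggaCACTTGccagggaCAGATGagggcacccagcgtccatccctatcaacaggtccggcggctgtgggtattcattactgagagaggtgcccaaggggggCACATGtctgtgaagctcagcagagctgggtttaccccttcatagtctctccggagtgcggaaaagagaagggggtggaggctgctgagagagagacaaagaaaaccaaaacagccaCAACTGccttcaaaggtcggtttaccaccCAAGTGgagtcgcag

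The Id2 window held 1 such E-box, Nkg7 2, Izumo1r 1 and Cd27 5. An E-box was present in 72.3% of all 32851 promoter windows of this length. Of the 12 genes highest and the 12 lowest in the members (described below), the table held 9 and 10; 7 of those 9 (77.8%) and 8 of those 10 (80.0%) had at least 1. The median number per window was 1 over all windows, 1 in the 9 and 1.5 in the 10. The narrower forms usual for E proteins, CAGCTG on either strand together with CACCTG on either strand, were in 32.9% of all windows, in 2 of the 9 and in 4 of the 10. Of the windows shown, those of Id2 and Izumo1r each held 1 of these forms. None of the E-boxes of Nkg7 and Cd27 had such a form. These shares describe the letters of the windows and not binding.

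Id2 varied widely among the control cells. Of the 2379 gated cells, 853 (35.9%) had no Id2 UMI, 457 had 1, 388 had 2 and 261 had 3. The members ran from 4 to 15 UMIs: 183 cells had 4, 105 had 5 and 132 had 6 or more. They made up 17.7% of the gated cells (exact binomial interval 16.1 to 19.2) and held 52.5% of the Id2 UMIs. Summed over all gated control cells, Id2 stood at 327 CPM (summed counts over 1000000 UMIs; 317 to 337), and over the members, by choice, at 919 CPM. The variance of the count was 2.35 times its mean of 1.78. Just inside the threshold, cells with 4 Id2 UMIs had 697 Id2 CPM, and just outside it, cells with 3 had 534. At these depths a count of 0 does not show that a cell lacked Id2 RNA.

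In the Id2-deficient library, 1096 of 2459 barcodes passed the same gates apart from the Id2 count. Id2 was at 9.72 CPM there (7.47 to 12.4), 98.3% of the cells had no Id2 UMI, and 6 cells (0.547%; 0.201 to 1.19) had 4 or more. Those 6 cells held 74.6% of the 63 Id2 UMIs of these gated cells. The sources used here do not say which exons lie between the lox sites, so the place of the remaining UMIs is not known. Of its barcodes 525 failed the gene or mitochondrial gate, against 12 in the control library, and its gated cells had a median mitochondrial share of 4.38% against 1.75%. The part of this in the levels of Id2-deficient cells given below was not tested. The plot of Id2 counts by library shows both distributions.

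**Figure D1:**
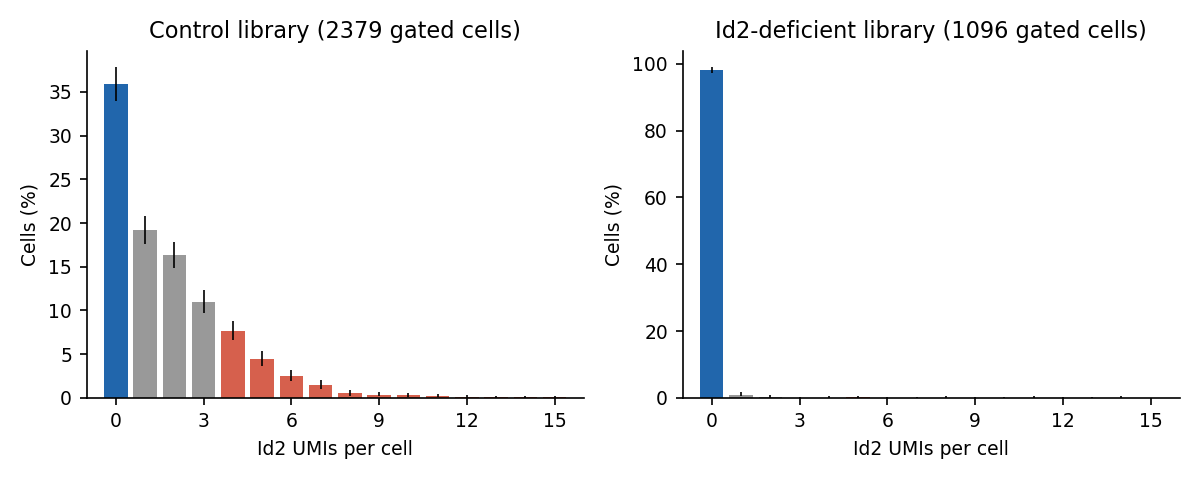
Percentage of gated cells (vertical axis, different scales) by Id2 UMIs per cell (horizontal axis) in the control and the Id2-deficient library. Bars are shares of cells with exact 95% binomial intervals; blue marks 0 UMIs, grey 1 to 3 and red 4 or more. In the control library 17.7% of cells lie at 4 or more, in the Id2-deficient library 0.547%.

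Both groups of control cells were T cells by the gates: the median CD3 count was 17 UMIs in the members and 15 in the Id2-zero cells. Cd4, the co-receptor used for the sort, had a UMI in 56.0% of members and 52.3% of Id2-zero cells after every cell was thinned to 4000 UMIs (68.3% and 61.9% before thinning). The members were somewhat deeper, with a median of 5742.5 UMIs against 5096 and 1937 genes against 1822. Their median mitochondrial share was 1.63% against 1.92%. The 2 libraries shared 3 barcodes, none of them gated in both.

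Across 6119 genes other than Id2 with at least 100 UMIs over both groups, 273 (4.46%) were at least 1.5-fold higher in the members than in the Id2-zero cells and 348 (5.69%) at least 1.5-fold lower, as ratios of summed CPM. These 2 shares are the ones to set beside each count of list genes below. The median log2 ratio was -0.03, the 5th percentile -0.62 and the 95th 0.55. Against the 457 cells with 1 Id2 UMI in place of the Id2-zero cells, 5013 genes were measured. Of these 87 (1.74%) were higher and 73 (1.46%) lower. Cells that carried follicular or stem-like genes (defined below, but here before thinning) were also left out of both groups. Over the remaining 375 members and 398 Id2-zero cells, 122 of 4592 genes (2.66%) were higher and 86 (1.87%) lower. All of these are summed over cells, where more cells of a kind and more RNA per cell cannot be told apart.

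Genes were ranked by the bound of the ratio's interval nearest to no difference. The 12 highest in the members included killer-cell and cytokine receptor genes, interferon-induced membrane proteins and a transcription factor. AA467197, also known as Nmes1, was at 167 CPM (151 to 184) in the members and 23.3 CPM (19.1 to 28.2) in the Id2-zero cells, a ratio of 7.18 (5.78 to 8.99), with a UMI in 165 of 420 and 58 of 853 cells. Nkg7, a protein of cytotoxic granules, was at 285 CPM (264 to 307) against 69.5 (62.0 to 77.6), 4.11-fold higher. In the Id2-deficient cells, given beside these as a description, AA467197 was at 1.85 CPM and Nkg7 at 7.72 CPM. Of the 3 sets of cells the Id2-deficient ones had the lowest level of both genes.

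The other genes of the 12 highest spanned log2 ratios of 1.68 to 2.36. They were Ifitm2 and Ifitm3, membrane proteins that block virus entry (334 against 65.1 CPM and 329 against 72.8 CPM), Plac8 (105 against 22.4 CPM), Lilrb4a, an inhibitory receptor of the immunoglobulin family (73.4 against 16.2 CPM), Klrc1, which encodes the receptor NKG2A (41.6 against 8.88 CPM), and Il18rap, a chain of the IL-18 receptor (90.3 against 21.3 CPM). Stmn2, a microtubule regulator best known from neurons, was at 110 against 30.0 CPM, Anxa1, a phospholipid-binding annexin, at 125 against 34.9 CPM, and Bhlhe40, a transcription factor of inflammatory T cells, at 184 against 57.3 CPM. In members with 6 or more Id2 UMIs Stmn2 was at 59.3 CPM. That is below its level in cells with 1, 2 and 3 (90.7, 82.6 and 90.0 CPM). A gene with at least 10% of its UMIs from a single cell was left out of the ranking. One of these was Ifitm1, which was at 261 against 57.9 CPM with 15.0% of its UMIs in 1 cell.

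The remaining gene of the 12 was Gm36723, a long noncoding RNA on the plus strand at chr12:25303940-25471979. Its start lies 210 kb from the lower coordinate of Id2, which is the end of that minus-strand gene. It had 110 UMIs in 91 member cells and 42 UMIs in 33 Id2-zero cells, 45.4 CPM (37.3 to 54.7) against 9.33 (6.72 to 12.6). The ratio was 4.86 (3.38 to 7.12). After thinning, 18.1% of members and 3.05% of Id2-zero cells had a UMI of it. In the Id2-deficient cells Gm36723 was at 8.49 CPM. The measured protein-coding genes Kidins220 and Taf1b have starts 119 kb and 595 kb to the other side of that lower coordinate of Id2. They had log2 ratios of 0.09 (-0.38 to 0.54) and -0.26 (-0.65 to 0.13).

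The 12 genes lowest in the members included several known from follicular helper and less differentiated T cells. Izumo1r, which encodes the folate receptor FR4, had 12 UMIs in 5 members and 581 UMIs in 201 Id2-zero cells, 4.95 CPM (2.56 to 8.64) against 129 (119 to 140), a 26.1-fold difference (14.8 to 50.8). Cxcr5, the receptor that draws cells into B cell follicles, had 2 UMIs against 134, 36.1-fold lower (9.80 to 301). Il21, the cytokine of follicular helper cells, had 1 UMI against 109. Members carried almost none of these 3 RNAs, and the width of the intervals comes from the few UMIs in the members.

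Id3 was at 11.1 CPM (7.34 to 16.2) in the members and 103 CPM (93.9 to 113) in the Id2-zero cells, 9.25-fold lower (6.28 to 14.2), with a UMI in 19 of 420 and 198 of 853 cells. Cd27, a costimulatory receptor of less differentiated T cells, was at 10.3 against 105 CPM, 10.1-fold lower (6.79 to 15.8). The receptor chains for IL-6 were both among the 12 lowest: Il6ra was at 6.18 against 60.2 CPM and Il6st, which encodes gp130, at 2.47 against 27.3 CPM. Also among them were Ephx1, an epoxide hydrolase (1.24 against 28.4 CPM), Tox2, a transcription factor of follicular helper cells (4.12 against 48.6 CPM), Nsg2 (9.89 against 88.6 CPM) and the noncoding Gm14718 (4.54 against 57.1 CPM). In the Id2-deficient cells Izumo1r was at 255 CPM, Id3 at 252 CPM, Cd27 at 187 CPM and Cxcr5 at 88.3 CPM. Each of these 4 levels was above that of both control groups.

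**Figure D2:**
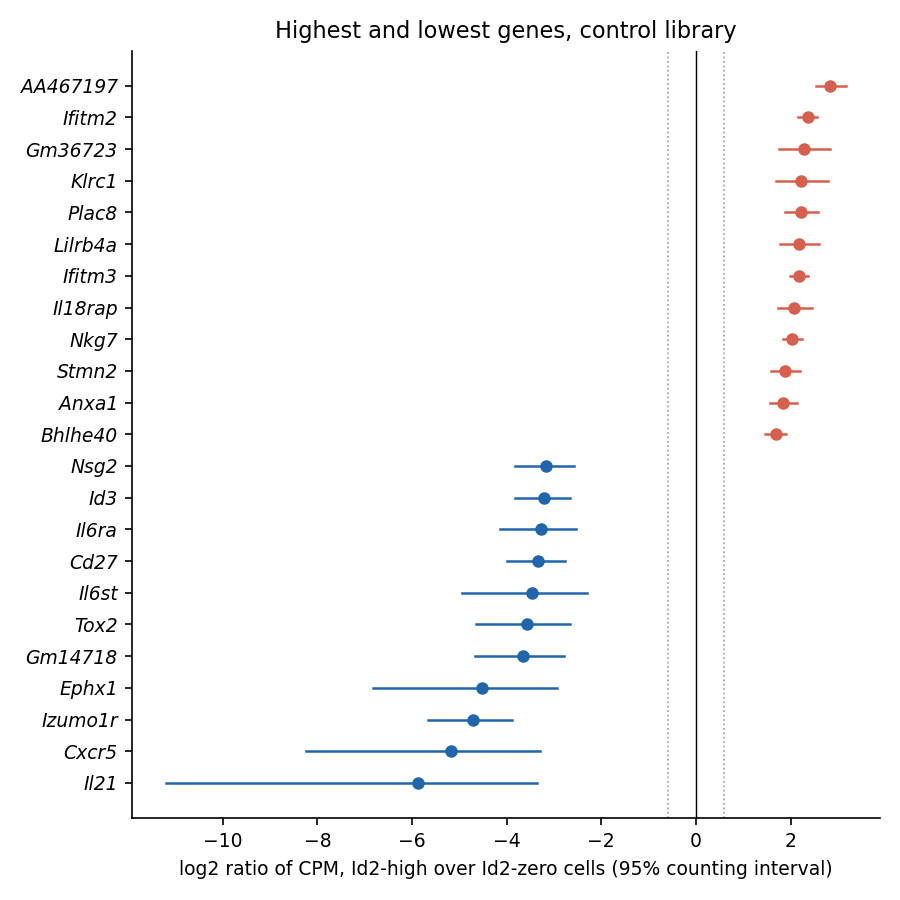
Log2 ratio of CPM, Id2-high over Id2-zero control cells (horizontal axis), for the 12 highest (red) and 11 of the 12 lowest (blue) measured genes, leaving out genes that drew 10% or more of their counts from a single cell. Points are ratios with 95% counting intervals and dotted lines mark 1.5-fold. The low side reaches further, from -3.16 to -5.88, than the high side, from 1.68 to 2.84, and its intervals are wider.

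The genes of type 1 helper (Th1) and cytotoxic cells were mostly higher in the members. Of 27 listed genes 16 were measured, of which 12 passed 1.5-fold upwards and 1 downwards. The list's median log2 ratio was 1.48, beside -0.03 over all genes. Cxcr6, a homing receptor of tissue-resident and effector T cells, was at 627 CPM (596 to 660) in the members and 212 CPM (199 to 226) in the Id2-zero cells, and 92.3 CPM in the Id2-deficient cells. The killer-cell receptor genes Klrd1 and Klrk1 had log2 ratios of 1.45 and 1.52, the granule protease gene Ctsw 1.61 and the regulator Hopx 1.29. Ifng was at 79.2 against 14.2 CPM, with 13.3% of its UMIs in 1 cell. Gzma had 121 UMIs against 8, but in 3 member cells and 4 Id2-zero cells.

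Some Th1 genes lay near no difference. Cxcr3 had a log2 ratio of 0.12 (-0.12 to 0.36), Stat4, which signals from the IL-12 receptor, -0.19 (-0.41 to 0.04), and Txk, a kinase, was lower at -0.66. The chemokine gene Ccl5 was higher than in the Id2-zero cells at a log2 ratio of 1.08 (0.94 to 1.22), but at -0.10 against the cells with 1 Id2 UMI. Several type 1 genes were below 100 UMIs and not counted above. Tbx21, which encodes the Th1 factor T-bet, had 42 UMIs in the members and 23 in the Id2-zero cells. The fractalkine receptor gene Cx3cr1 had 61 against 10, and Klrg1, a marker of terminal effector cells, 43 against 19. These counts are out of 2425542 UMIs in the members and 4503892 in the Id2-zero cells. After thinning, Tbx21 was found in 7.38% of members and 1.52% of Id2-zero cells, Cx3cr1 in 3.57% and 0.352%, and Klrg1 in 4.52% and 0.938%. The median of the measured list was 0.45 against cells with 1 Id2 UMI, 0.89 without follicular and stem-like cells and 0.52 without cells with cytotoxic genes. Leaving out cells with cytotoxic genes takes those genes themselves out of the list, so the 0.52 covers fewer genes.

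Among effector transcription factors 12 genes were measured; 6 passed 1.5-fold upwards and 1 downwards, around a median of 0.42. Beside Bhlhe40, the higher ones were Runx2 (68.9 against 29.8 CPM), Gata3, the factor of type 2 and innate-like cells (99.8 against 56.8 CPM), the Notch partner Rbpj (log2 ratio 0.76), Runx3 (0.67) and Rora (0.61). Ikzf3, which encodes Aiolos, was the lower one at -0.70, and Maf, a factor of IL-10 and IL-21 production, was at -0.45 (-0.59 to -0.31). The E protein genes were split: Tcf12 was at 27.6 against 40.9 CPM and Tcf3 at 21.4 against 22.4 CPM, with a ratio interval for Tcf3 that spans no difference. Tcf4 was at 4.95 against 3.33 CPM, from 12 and 15 UMIs.

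The Th17 list lay on both sides of no difference. Il1r1, a receptor for IL-1, had a log2 ratio of 0.12, and Ccr6, the receptor that guides Th17 cells, one of -0.36. Of 15 measured Th17 genes 6 were higher by 1.5-fold or more, among them Ltb4r1, a leukotriene receptor (164 against 67.9 CPM), Podnl1 (0.92) and Il17re (0.82), and 2 were lower, Il21 and Il6ra. The median was 0.12. The cytokine RNAs themselves were sparse: Il17a had 10 UMIs in the members and 17 in the Id2-zero cells, Il17f 10 and 30, and Il22 17 and 64. Csf2, which encodes GM-CSF, had 26 against 10. These counts are out of 2425542 UMIs in the members and 4503892 in the Id2-zero cells. After thinning, Il17a was found in 1.43% of members (0.526 to 3.08) and 0.821% of Id2-zero cells (0.331 to 1.68). Il17f was in 1.19% and 2.46%, Il22 in 2.38% and 4.57%, and Csf2 in 3.81% and 0.938%.

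The follicular helper list was lower as a group. Of its 15 measured genes 11 were 1.5-fold or more lower, Slamf1 alone was that much higher, and the median was -1.51. Pdcd1, the gene of the inhibitory receptor PD-1, was at 11.5 against 60.4 CPM. Slamf6, a receptor of follicular and stem-like T cells, was at 57.7 against 197 CPM. Sh2d1a, the adaptor of the SLAM receptors, had a log2 ratio of -1.51, Cd200 -2.73, Tox -2.60 and Btla -1.37. The costimulatory gene Icos was not among them, at -0.16 (-0.37 to 0.04). Bcl6, the central follicular helper factor, had 10 UMIs against 82, and Ascl2 0 against 42, out of 2425542 and 4503892 UMIs. After thinning, Bcl6 was found in 2.14% of members and 4.69% of Id2-zero cells. The median of the list was -0.47 against cells with 1 Id2 UMI and -0.40 without follicular and stem-like cells. Leaving out those cells takes any listed gene that defines them out of the list, so the -0.40 is not over the same genes. Nor is the -0.47: Pdcd1, with 28 UMIs in the members and 70 in cells with 1 Id2 UMI, fell below 100 UMIs there.

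Of 16 measured naive, stem-like and memory genes, 10 were lower and 1 higher, with a median of -0.97 (-0.43 against cells with 1 Id2 UMI, -0.22 without follicular and stem-like cells and -0.52 without cells with B cell or antigen presentation RNA). The -0.22 leaves out listed genes that define the cells left out, such as Ccr7. The -0.43 leaves out Ikzf2, which had 14 UMIs in the members and 38 in cells with 1 Id2 UMI, below 100 UMIs. Tcf7, the gene of the stem-like factor TCF-1, was at 175 CPM (159 to 193) in the members, 411 CPM (393 to 430) in the Id2-zero cells and 545 CPM in the Id2-deficient cells. Ccr7, a lymph node homing receptor, was at 9.07 against 55.7 CPM, Lef1 at 77.1 against 123 CPM and Ikzf2 at 5.77 against 45.7 CPM. The gene that was higher was Il7r, the survival receptor for IL-7, at 998 against 589 CPM. Klf2 and S1pr1, genes of recirculating cells, had log2 ratios of 0.21 and -0.04.

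The S100, annexin and galectin list, genes of cell structure and calcium binding, was higher in the members. It had 16 measured genes, all with log2 ratios above 0; 11 of them passed 1.5-fold, and the median was 0.89. S100a4 was at 3286 against 1502 CPM, the intermediate filament gene Vim at 2357 against 1099 CPM, and Lgals3, which encodes galectin-3, at 461 against 156 CPM. Ccr2, which guides cells to inflamed tissue, was at 401 CPM (376 to 427) against 132 CPM (121 to 143) and at 38.1 CPM in the Id2-deficient cells. In the wider migration list 7 of 18 measured genes were higher, 1 was lower and 13 were above 0. The median of the S100, annexin and galectin list was 0.23 against cells with 1 Id2 UMI and 0.39 without follicular and stem-like cells.

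Among 16 measured cytokine receptor genes 6 were higher and 3 lower, beside 4.46% higher and 5.69% lower over all genes. Ifngr1, a chain of the IFN-gamma receptor, was at 644 against 271 CPM, and Il2ra had a log2 ratio of 1.18. Of 25 measured interferon response genes 6 were higher and 5 lower. The Ifitm genes were among the higher, while Ifi27l2a was lower, at 686 against 2278 CPM with 2456 CPM in the Id2-deficient cells, as were Ifit1 (7.42 against 28.2 CPM) and Isg15 (25.1 against 55.7 CPM). The list therefore did not differ in 1 direction, with a median of -0.01. Of 5 measured inhibitory receptor genes 4 were lower.

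Most metabolic lists held few genes past 1.5-fold. None of 65 measured nuclear-encoded oxidative phosphorylation genes, 19 tricarboxylic acid cycle genes, 12 fatty acid oxidation genes and 12 mitochondrially encoded genes reached 1.5-fold. Their medians were 0.02, -0.02, 0.14 and -0.29. Of 17 glycolysis genes 1 was higher, the glucose transporter gene Slc2a3 at 30.9 against 8.88 CPM, and 2 lower, among them Ldhb at 7.83 against 37.5 CPM. Of 18 fatty acid and cholesterol synthesis genes 4 were lower, such as the desaturase gene Scd2 at 6.18 against 26.2 CPM, beside 5.69% lower over all genes; that list's median was -0.41, and 2 of the 18 were above 0. Of 13 cell cycle genes 4 were higher and 0 lower, with a median of 0.34. Of 15 T cell receptor complex genes 1 was lower (median -0.14), of 12 receptor activation genes 1 was higher and 3 lower (-0.22), of 19 immediate early and heat shock genes 1 was higher and 2 lower (0.12), and of 14 Bcl2 family and death receptor genes 2 were higher and 3 lower (-0.05). Over all genes 4.46% were higher and 5.69% lower, so a count of 1 in lists of this size is near those shares. Of 8 regulatory T cell genes 2, Il2ra and Capg, were higher and 4 lower, Izumo1r among them, around a median of -0.28.

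Across the full range of Id2 counts, Cxcr6, Izumo1r and Gm36723 went most of the way below the threshold of 4. Cxcr6 was at 212, 379, 487 and 477 CPM in cells with 0, 1, 2 and 3 Id2 UMIs, and at 615, 568 and 691 CPM in members with 4, 5 and 6 or more. Izumo1r was at 129, 56.1, 27.8 and 19.8 CPM below the threshold and at 2.86, 10.0 and 3.87 CPM above it. Gm36723 was at 9.33, 28.1, 38.7 and 40.2 CPM, then at 44.8, 51.7 and 41.2 CPM with intervals that overlap. Lilrb4a and Ifng were less even. Lilrb4a was at 16.2, 28.5, 48.6 and 36.8 CPM at 0 to 3 Id2 UMIs, and at 77.2, 66.7 and 73.5 CPM in the member classes. Ifng was at 14.2, 33.8, 53.8 and 40.2 CPM, then at 110, 46.7 and 63.1 CPM. More than 10% of the Ifng UMIs came from 1 cell, as given above. Within the members none of the genes Cxcr6, Izumo1r and Gm36723 went in 1 direction through the classes of 4, 5 and 6 or more. Ccr6 was between 124 and 144 CPM at 0 to 3 Id2 UMIs and at 120, 117 and 92.8 CPM in the members. The Id2 count is itself a small sample of a cell's RNA, so neighbouring classes hold cells of like Id2 content.

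**Figure D3:**
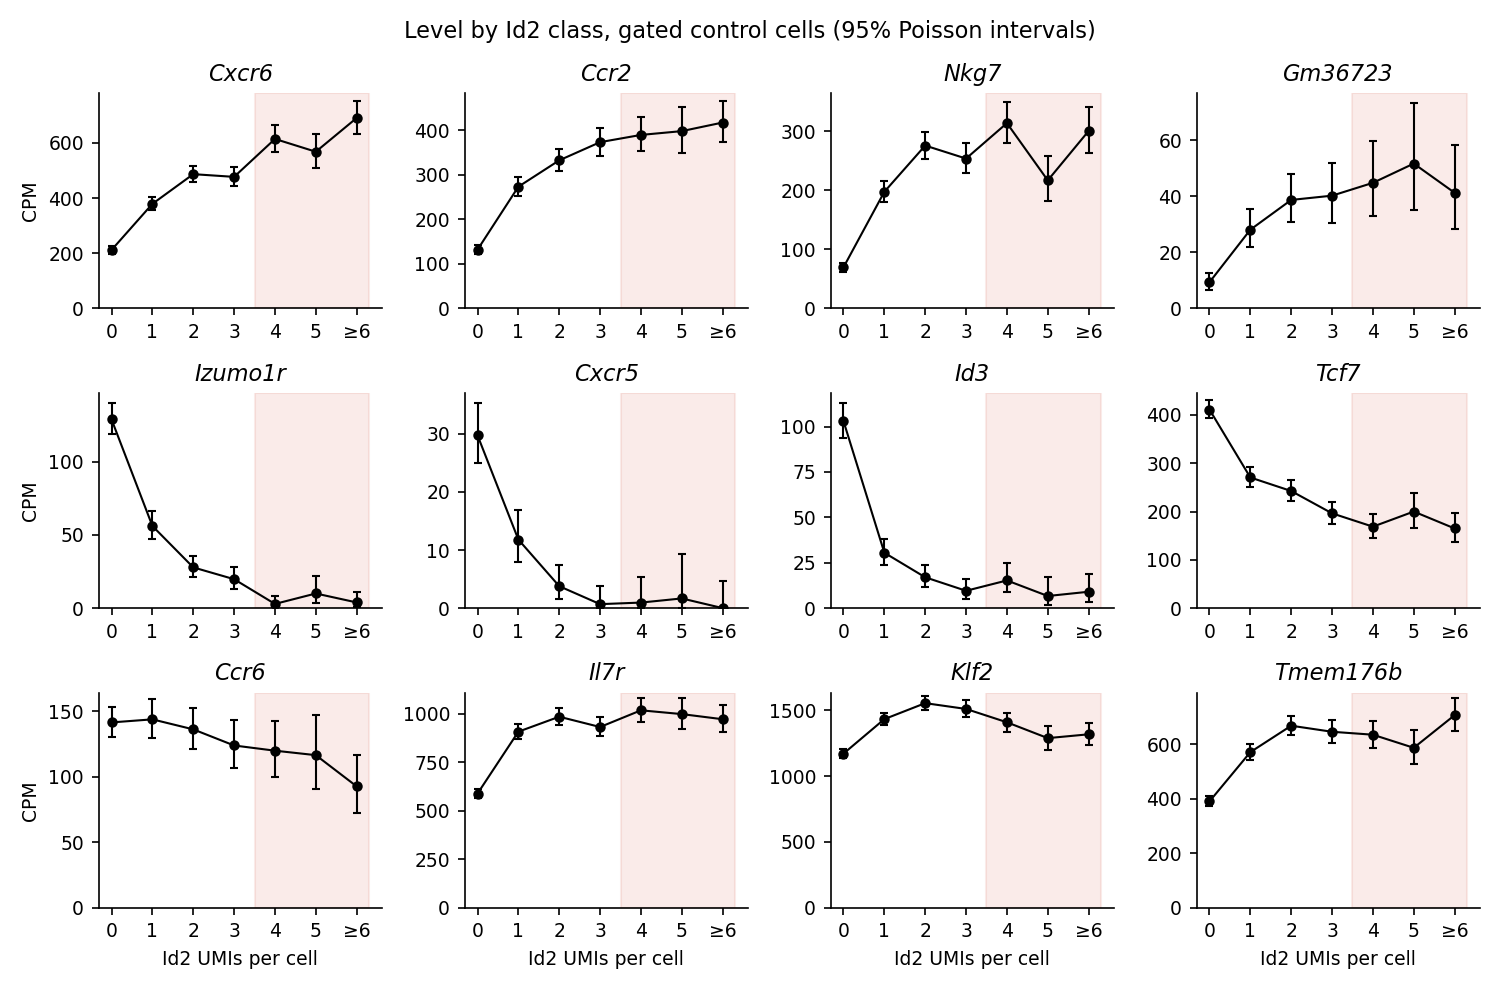
Level in CPM (vertical axis, each from 0) of 12 genes by the Id2 UMIs of the cell (horizontal axis), gated control cells. Points are summed levels with 95% Poisson intervals, lines join classes for reading, and the shaded classes hold the members. Cxcr6 goes from 212 CPM at 0 to 691 CPM at 6 or more, and Izumo1r from 129 CPM to 3.87 CPM.

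Seen from the other genes, Id2 was above its level over all gated cells, 327 CPM, in cells with several effector and killer-cell RNAs. Cells with a Cxcr6 UMI (1566) had Id2 at 407 CPM (394 to 421), and cells without one (813) at 162 CPM (150 to 175); 23.2% of the first and 7.01% of the second were members. Cells with a Nkg7 UMI (506) had Id2 at 485 CPM and cells with a Cx3cr1 UMI (53) at 548 CPM. Zbtb16, which encodes PLZF, a factor of innate-like T cells, was found in 10 gated cells with Id2 at 619 CPM (431 to 860). Of those 10 cells 7 were members and 0 had no Id2 UMI. Foxp3, the factor of regulatory T cells, was found in 24 cells with Id2 at 177 CPM (114 to 264), and 1 of them was a member.

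At the other end, the 126 cells with a Cxcr5 UMI had Id2 at 64.3 CPM (46.3 to 86.9); 78.6% of them had no Id2 UMI and 2 were members. The 79 cells with Il21 had Id2 at 71.3 CPM, the 281 with Izumo1r at 87.4 CPM and the 293 with Id3 at 139 CPM. Cells with RNA of Th17 genes lay on both sides of the 327 CPM over all gated cells. Cells with Il17a had Id2 at 332 CPM (252 to 428) over 30 cells. The 93 cells with Il22 had 211 CPM (174 to 254), the 62 with Il17f 274 CPM (224 to 332) and the 872 with Ccr6 280 CPM (265 to 295). The 144 cells with Il23r had 339 CPM (301 to 381), the 358 with Il1r1 339 CPM (314 to 365) and the 1684 with Tmem176b 363 CPM (351 to 375). These levels use the same cells as the comparison of members with Id2-zero cells and give it from the other side.

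**Figure D4:**
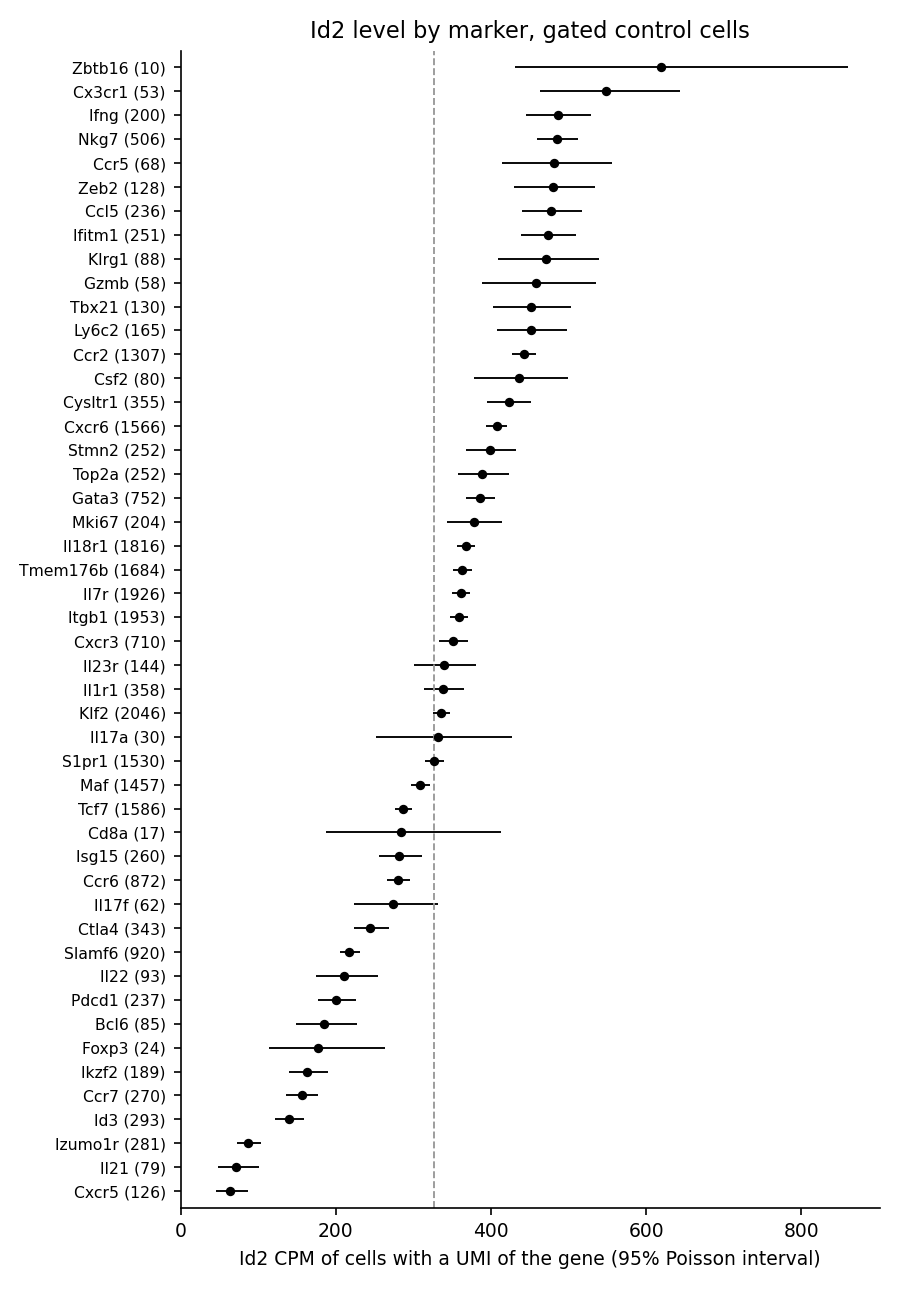
Id2 level in CPM (horizontal axis) of gated control cells with at least 1 UMI of each gene (vertical axis, number of cells in brackets). Points carry 95% Poisson intervals and the dashed line is the level of all gated cells, 327 CPM. The order runs from 64.3 CPM in cells with Cxcr5 to 619 CPM in cells with Zbtb16, the latter over 10 cells.

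To describe the states within the members, each cell was thinned to 4000 UMIs and checked for 2 sets of genes, put together after these values were known. The cytotoxic set was Ifng, Nkg7, Gzma, Gzmb, Ccl5, Klrc1, Klrd1 and Klrk1, and the follicular and stem-like set was Cxcr5, Il21, Izumo1r, Id3, Ccr7 and Tox2. A cytotoxic UMI was found in 242 members (57.6%; 52.7 to 62.4) and in 184 Id2-zero cells (21.6%; 18.9 to 24.5). A follicular or stem-like UMI was found in 36 members (8.57%; 6.08 to 11.7) and in 420 Id2-zero cells (49.2%; 45.8 to 52.6). Nkg7 and Klrc1 are among the 12 highest genes above, and Cxcr5, Il21, Izumo1r, Id3 and Tox2 among the 12 lowest. The differences in these shares between members and Id2-zero cells therefore follow in part from the choice of genes and are not a separate result. Of the members 230 had cytotoxic UMIs alone, 24 follicular or stem-like alone, 12 both and 154 neither. A UMI of Mki67, Top2a, Birc5, Ube2c or Cdk1, genes of dividing cells, was found in 20.5% of members (16.7 to 24.7) and 15.6% of Id2-zero cells (13.2 to 18.2).

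Read from the sets, 24.9% of the 973 gated cells with a cytotoxic UMI were members (22.2 to 27.7), and 5.59% of the 644 with a follicular or stem-like UMI (3.95 to 7.66). The share with cytotoxic UMIs alone was 15.5% at 0 Id2 UMIs, 39.6% at 1 and 50.8% at 2, and between 49.8% and 56.8% in the classes above. The 11 barcodes of B-lineage cells reached the lower depth gate, and the upper one was not applied to them. They had no UMI of Nkg7 or Cxcr6, which at 11 cells allows a share of up to 27.3%. They had Izumo1r in 1 of 11 cells (9.09%; 0.230 to 41.3), against 1.19% of members, Ifitm3 in 36.4%, against 37.6%, and Plac8 in 63.6%, against 84 of 420 members. So few cells leave wide intervals.

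**Figure D5:**
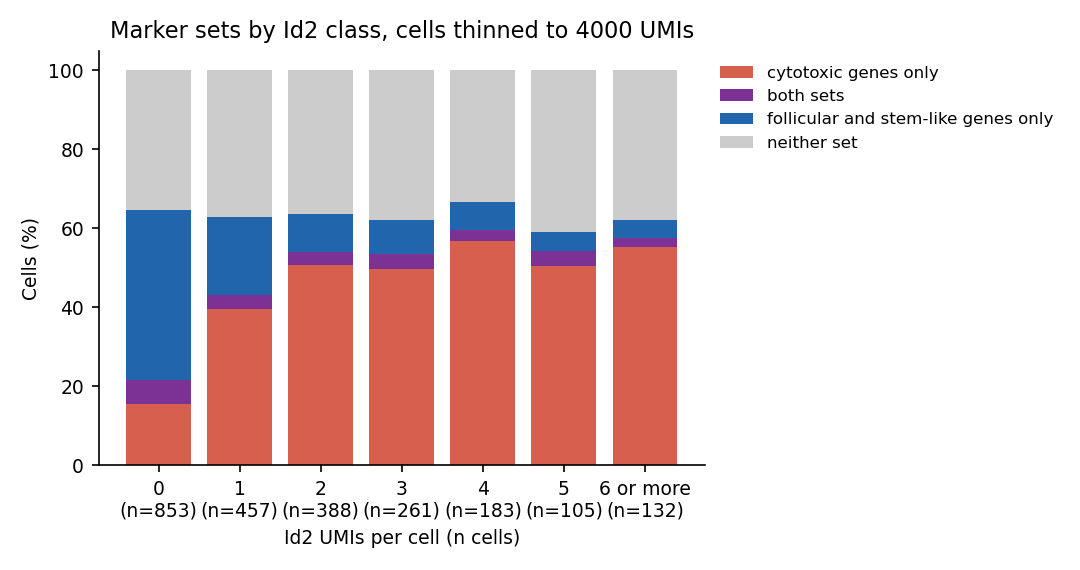
Share of gated control cells in percent (vertical axis) with UMIs of the cytotoxic set, the follicular and stem-like set, both or neither, by Id2 UMIs per cell (horizontal axis, number of cells below), after thinning to 4000 UMIs. The share with the cytotoxic set alone goes from 15.5% at 0 to between 50.5% and 56.8% in members. The share with the follicular and stem-like set alone goes from 43.1% to between 4.55% and 7.10%.

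Splitting the members by cytotoxic RNA, after values were known, gave 2 sets of cells with different levels of some Th17 genes. A cell without a cytotoxic UMI may still hold such RNA. The 242 with a cytotoxic UMI and the 178 without had Id2 at 921 CPM (872 to 973) and 916 CPM (859 to 976), at median depths of 5710 and 5765.5 UMIs. Both sets were chosen by the same Id2 count and depth gates, so their like Id2 levels are not a result. Members without cytotoxic RNA had more of some Th17 genes: Ccr6 was at 188 CPM (163 to 216) against 52.6 CPM (41.2 to 66.1) and Il23r, a chain of the IL-23 receptor, at 23.1 against 5.04 CPM. Maf was at 323 against 184 CPM, Tmem176b at 806 against 526 CPM and Tnfsf8 at 123 against 51.1 CPM. Genes of the gamma delta list were also higher in these cells: Tcrg-C1 was at 51.1 against 17.3 CPM and 5830411N06Rik at 52.1 against 24.5 CPM. The part of cells with gamma chain RNA in the split was not tested.

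Members with cytotoxic RNA had more AA467197 (249 against 57.8 CPM), Ifitm2 (461 against 164 CPM), Hopx (355 against 146 CPM) and Bhlhe40 (223 against 131 CPM). Cx3cr1 had 43.9 CPM in them and no UMI in the others. Cxcr6 and Ccr2 differed less between the 2 sets, at 676 against 563 CPM and at 434 against 357 CPM, and Lilrb4a and Ltb4r1 had intervals of the ratio that span no difference. Cd27, Id3 and Pdcd1 were low in both: Id3 was at 9.36 CPM in members with and 13.5 CPM in members without cytotoxic RNA. The genes of the cytotoxic set made the split, so their own difference is not a result.

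RNA of other cell kinds was small but not equal between the groups. A UMI of the gamma chain genes Tcrg-C1, Tcrg-C2 or Tcrg-C4 was found in 43 members (10.2%; 7.51 to 13.5) and 36 Id2-zero cells (4.22%; 2.97 to 5.80), and Trac, the alpha chain constant gene, was at 510 against 921 CPM. The 10 gamma delta genes found sum to 125 CPM in the members and 61.1 CPM in the Id2-zero cells. Without the cells that had gamma chain RNA, 272 genes were higher and 370 lower in 370 members against 806 cells. Of the 20 innate-like and NK cell genes the NK genes Ncr1, Klra4, Klra7 and Klra8 and the chemokine gene Xcl1 were at 0 in both groups, and the list summed to 298 against 213 CPM.

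The gates fixed Cd79a at 0. The B cell gene Ms4a1 was at 0 in both groups, and the 16 B cell and plasma cell genes summed to 205 CPM in the members and 187 CPM in the Id2-zero cells. Cd74 had 54.9% of its UMIs in 1 cell, and Ighm was at 33.4 against 139 CPM, with 328 CPM in the Id2-deficient cells. The 21 myeloid genes summed to 412 against 773 CPM, with 80.9% of the S100a9 UMIs and all 213 Retnlg UMIs in 1 cell each. Without cells with myeloid RNA, 247 of 5630 measured genes (4.39%) were higher and 304 (5.40%) lower. Without cells with B cell or antigen presentation RNA, 157 of 4679 (3.36%) were higher and 196 (4.19%) lower. Cd8a and Cd8b1 gave a UMI in 15 members (3.57%) and 23 Id2-zero cells (2.70%). The part of these cells in the other differences was not tested beyond these counts.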

How the data were processed

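Single-cell 3' RNA was measured in 2 droplet libraries, 1 per genotype. The authors deposited whole-number UMI counts per gene and barcode, already limited to called cells by a rule that these sources do not state. Per the file headers the counts came from Cell Ranger 5.0.1, while the submitters' processing notes name Cell Ranger 1.3 and the build mm10. Total counts were 33646845 UMIs (control) and 14668624 UMIs (Id2-deficient), and the gated cells held 12974656 and 6479446.

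Counts were summed per group and divided by the summed total (CPM), with exact Poisson intervals. Ratios had exact conditional binomial intervals and shares Clopper-Pearson intervals, all at 95% and for counting error only. A gene was measured with at least 100 UMIs over both groups and counted as different past 1.5-fold. Against a group at 0 a floor of 3 counts was used. Shares were taken after thinning each cell to 4000 UMIs. Cells left out of a comparison for the RNA they held were found from unthinned counts. No test was run, because the members and the Id2-zero cells come from the same control library and each genotype has 1 library. The script was checked on simulated counts.

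The named genes were the top 12 measured genes in each direction, ranked by the interval bound of the log2 ratio that is nearest to 0, without genes with 10% or more of their counts from a single cell; the highest, lowest and most abundant members of 29 gene lists, with every measured member of the lists the text leads with; and a panel of markers. S100a4, Lgals3, Kidins220, Taf1b and the genes under 100 UMIs that are outside the panel were named after their values were seen. Members and lists were chosen with earlier results of these data known. No doublets were removed: Scrublet, run in scanpy 1.11.5, called 2 of 4925 control cells (0.0406%) and so had not worked, and an alternative left out the 4% with the highest scores. In all, 13 other settings chosen at the outset, the Scrublet one among them, and 6 chosen after seeing the data were run. Of 32285 gene IDs 32235 were in the GENCODE annotation used for coordinates (GRCm38). Python 3.11.15, numpy 2.4.6, scipy 1.17.1 and pandas 2.3.3 were used. A few genes that the rule would name are not reported here.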

Additional observations from a re-analysis of the deposited data

Results flagged for a closer look

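Control cells outside the gates also carried Id2. The 616 control cells with a Trdc UMI, other gates the same, had Id2 at 448 CPM (426 to 470), and 159 of them (25.8%) had 4 or more Id2 UMIs. Trdc encodes the delta chain constant region of the gamma delta T cell receptor. The 9 cells with a Cd79a UMI, other gates the same, had Id2 at 318 CPM (185 to 509), and 2 of them had 4 or more. Both levels are above the limit that a count of 0 allows, 0.858 CPM and 56.1 CPM, which is what singled them out. Neither set of cells enters the comparison of members with Id2-zero cells.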

How the results depend on the processing

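No paired analysis was possible because each genotype has 1 library and no comparison has replicate numbers. Of 93 named genes past 1.5-fold, 89 kept their sign in all 19 alternatives that gave a value, and 47 also stayed past 1.5-fold in all of them. The median of the myeloid list changed from -1.44 to 1.54 against cells with 1 Id2 UMI and to 2.33 at 3 or more CD3 UMIs. In the same order S100a9 went to 1.54 and 2.33 and S100a8 to 1.65 and 2.80. A single Id2-zero cell held 1204 of 1281 Id2-zero UMIs of S100a9 and 1038 of 1096 of S100a8, and a single member cell 175 of 207 and 181 of 217. Ccl5 went from 1.08 to -0.10 against cells with 1 Id2 UMI, and Cd8b1 from -0.87 to 0.062 without follicular and stem-like cells, and the cause was not tested.

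The counts of 273 higher and 348 lower came from 6119 measured genes (4.46% and 5.69%). They became 179 and 197 of 4371 genes (4.10% and 4.51%) at 5000 to 7000 UMIs. Against cells with 1 Id2 UMI they were 87 and 73 of 5013 (1.74% and 1.46%). Without follicular and stem-like cells they were 122 and 86 of 4592 (2.66% and 1.87%). Without cells with B cell or antigen presentation RNA they were 157 and 196 of 4679 (3.36% and 4.19%). With a minimum of 50 UMIs they were 412 and 647 of 7900 (5.22% and 8.19%). With a minimum of 300 UMIs they were 106 and 104 of 2946 (3.60% and 3.53%). Each setting has its own set of measured genes, so a list median need not cover the same genes. Against cells with 1 Id2 UMI the list medians were 0.45 (Th1 and cytotoxic), -0.47 (follicular helper), -0.43 (naive, stem-like and memory) and 0.23 (S100, annexin and galectin). In that setting Pdcd1 of the follicular helper list and Ikzf2 of the naive list fell below 100 UMIs. Without follicular and stem-like cells the list medians were 0.89, -0.40, -0.22 and 0.39. There, listed genes that define the cells left out were no longer measured, so a median can cover fewer genes. The follicular helper median was -1.20 at 5000 to 7000 UMIs, -1.21 at 300 UMIs and -1.13 without B cell RNA. The naive list was at -1.26 with 50 UMIs, -0.67 with 300 UMIs and -0.52 without B cell RNA. The S100 list was at 0.99 without cycling cells and 0.69 without B cell RNA. The Th1 list was at 0.52 without cells with cytotoxic genes, again over fewer genes. Depth limits the sparse genes most: a member group at 1 to 3 UMIs leaves ratio intervals over 10-fold wide.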
